A study of Mus musculus with 2 samples.

Results

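The cells described here are stem-like barcodes of mouse bone marrow, chosen by transcripts of Hlf and Mecom. There were 93 of them among 13251 barcodes that passed the quality filters in the control library and 80 among 10543 in the MYC library, 173 of 23794 in all. A barcode was a member if it held at least 1000 unique molecular identifiers (UMIs, the counted transcript molecules), with under 10% from mitochondrially encoded genes, and met 4 criteria on named genes. It held at least 2 UMIs of Hlf and Mecom together and at least 2 UMIs of Meis1, Angpt1, Adgrg1, Adgrl4 and Kit together. Elane, Mpo, Prtn3 and Ctsg, which encode granule proteins of immature granulocytes, made up under 1% of its UMIs, and the neutrophil genes S100a8 and S100a9 under 5%. Expression itself therefore chose the members, and the levels of these 13 genes are given as a description only.

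Blood stem cells sit at the top of hematopoiesis, divide rarely, and keep their identity through a small set of transcription factors. Hlf and Mecom are among the most selective of these in mouse marrow, and both are lost early as cells commit to a lineage. MYC is a transcription factor that drives growth, ribosome production and division. In stem cells it is also known for shifting the balance between staying in the niche and differentiating.

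The study measured the transcriptomes of single bone marrow hematopoietic cells to ask how expression changes after MYC is overexpressed in blood stem cells. It held 2 libraries, 1 per genotype. The control library was Mx1Cre+/-;Rosa26+/+, and the other, called the MYC library, was Mx1Cre+/-;Rosa26LSL-MYC/LSL-MYC, so both carried the Cre. Mx1-Cre is a recombinase under an interferon-inducible promoter, active in many hematopoietic and some other cells and not only in stem cells. In LSL-MYC, a stop cassette blocks the transgene until Cre cuts it out. The animals' age, the number of animals per library and any induction treatment are not given in the sources used here. With 1 library per genotype there is no replicate, no statistical test was run between the libraries, and genotype cannot be told apart from any other difference between these libraries. All intervals below are 95% intervals that cover counting error only. The control library held 131884603 UMIs in 17073 barcodes and the MYC library 110012176 in 14496, and 97 barcode sequences occurred in both libraries, none of them shared between members.

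Members made up 0.702% (exact Clopper-Pearson interval 0.567 to 0.859) of the filtered control barcodes and 0.759% (0.602 to 0.944) of those of the MYC library. The ratio of these shares was 1.08 with an interval of 0.792 to 1.47, so no difference in the share of stem-like cells was detectable at this number of cells. A share of sequenced barcodes is not a number of cells per animal.

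The members were deep cells. Control members had a median of 17654 UMIs and MYC members one of 13772, against 6704 and 7570 over all filtered barcodes. Their totals ran from 5504 to 131919 and from 3086 to 94394, with median numbers of genes of 4313 and 3538.5. Summed over members, the libraries held 2142249 and 1500432 UMIs, of which the single deepest cell gave 6.16% and 6.29%. The median mitochondrial share was 4.66% and 3.84%. Gene levels below are UMIs summed over the members of a library per 1000000 of those members' UMIs (CPM), and differences are log2 ratios of the MYC over the control library.

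**Figure D1:**
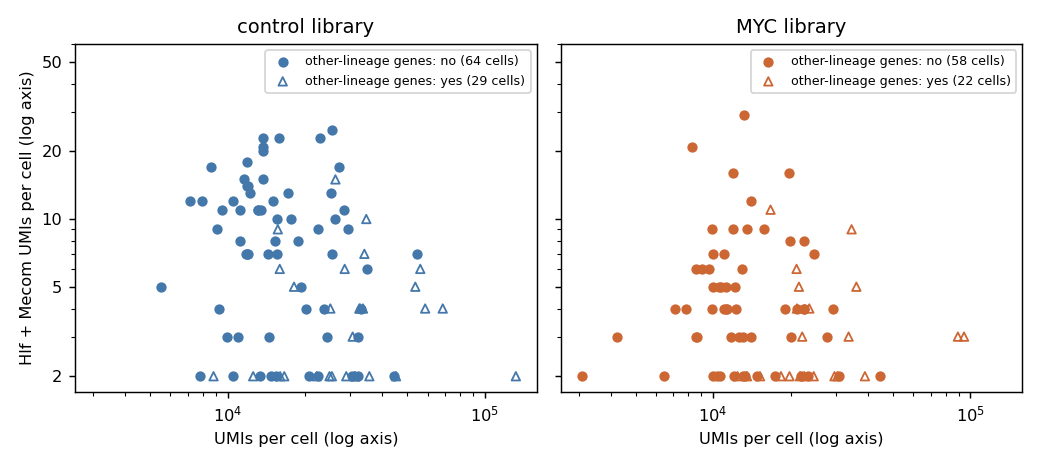
UMIs of Hlf and Mecom together against total UMIs for every member, both on log axes, control library left and MYC library right. Open triangles are the 29 control and 22 MYC members with at least 3 UMIs of 4 defining megakaryocyte, 4 endothelial or 4 mast and basophil genes, and the bottom row of points holds the 23 and 25 members at the threshold of 2 UMIs.

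Both genes of the first criterion were found in 66 control and 54 MYC members, Hlf alone in 21 and 19, and Mecom alone in 6 and 7. In neutrophil-rich barcodes a Hlf UMI was found in 5.07% and 3.62%, and a Mecom UMI in 0.325% and 0.173%. The plot of both genes against depth shows how they spread. Control members had a median of 6 UMIs of the pair and MYC members one of 4, and the highest sums were 25 and 29. Just inside the threshold were 23 and 25 members with exactly 2 UMIs, with median totals of 22501 and 17345 UMIs. Just outside were 53 and 29 barcodes that met every other criterion with 1 UMI. The members with 3 or more, 70 and 55 cells, were shallower, at medians of 15925.5 and 13029 UMIs.

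Among the markers followed over these steps, Meis1, Adgrg1, Adgrl4 and Kit of the rule and Procr outside it stepped up in both libraries. The rule's Angpt1 did so in the control but was at 137, 132 and 206 CPM in MYC cells. Outside the rule, Ly6a and Mllt3 stepped up in MYC cells only, and Hoxa9 and Gata2 in neither library. In the control, Meis1 was at 77.8 CPM in barcodes with 1 UMI of Hlf and Mecom, 140 CPM in members with 2 and 252 CPM in members with 3 or more. In the MYC library the same steps were 75.1, 111 and 131 CPM. Procr, outside the rule, which encodes the endothelial protein C receptor EPCR, stood at 1.43, 1.56 and 14.7 CPM in control cells and at 2.89, 8.35 and 31.3 CPM in MYC cells, the lowest of which rest on 1 or 2 UMIs. Hoxa9 stood at 30.7, 26.5 and 55.3 CPM in control cells and at 28.9, 41.8 and 37.2 CPM in MYC cells. Gata2 ran against this order in control cells, at 212, 196 and 173 CPM, and was at 117, 125 and 98.9 CPM in MYC cells.

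Stem cell genes that the rule did not use were present. Of 12 such markers, among them Procr, Slamf1, Mllt3, Hoxa9, Fgd5, Gata2, Ly6a, Cd34 and Esam, a control member had a median of 5 and a MYC member a median of 4 with a UMI. At least 3 of the 12 were found in 91.4% of control and 83.8% of MYC members. The comparison population was progenitors that met every other criterion but held no Hlf or Mecom UMI, 480 control and 322 MYC barcodes with median depths of 18932 and 17220 UMIs. There the share was 23.1% and 21.4%. In neutrophil-rich barcodes, which should lack these genes and had median depths of 5428 and 6743 UMIs, it was 0.230% and 0.205%. After each cell was thinned to 5000 UMIs the shares were 41.9% and 38.5% of members (2 MYC members were too shallow), 4.43% and 4.36% of progenitors and 0.150% and 0.0944% of neutrophil-rich barcodes. Ptprc, the blood cell surface phosphatase CD45, was found in 84 of 93 and 65 of 80 members, and Cd34, a surface protein of early blood cells, in 72 and 68. At least 3 of these 12 markers were thus found in members far more often than in either comparison population, in both libraries. Single markers did not all go this way. Gata2 was at 184 and 170 CPM in progenitors against 173 and 98.9 CPM in members with 3 or more UMIs of Hlf and Mecom. Mllt3 was at 69.3 and 48.1 CPM against 52.0 and 52.9 CPM, while Procr, Ly6a and Hoxa9 were lower in progenitors in both libraries.

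Some members also held transcripts of other lineages. Of 4 genes per lineage, the megakaryocyte set Pf4, Ppbp, Gp9 and Gp1bb reached 3 UMIs in 13 control and 7 MYC members, the endothelial set Cdh5, Kdr, Flt1 and Emcn in 4 and 2, and the mast and basophil set Cpa3, Fcer1a, Ms4a2 and Mcpt8 in 14 and 16. By a longer list of 17 megakaryocyte genes, some of which stem cells also carry, 86 and 71 members held at least 3 UMIs. The megakaryocyte chemokine gene Pf4 gave 4635 and 2625 UMIs, but 2547 and 1184 of them came from 1 cell in each library. Over 0.5% of UMIs in that list was reached by 7 control and 4 MYC members, while the median member held 0.0361% and 0.0356%. In 1 control and 1 MYC member 10.7% and 4.67% of UMIs came from 12 basophil and mast cell genes. The stromal chemokine gene Cxcl12 had 189 UMIs in control members, 100 of them in 1 cell, and 3 in MYC members, and 2 control members held over 0.5% of their UMIs in 11 stromal genes. The T cell gene Cd3e was at 0 and 1 UMI. The doublet caller did not work in the MYC library, where it marked 0 barcodes. In the control library it marked 671 barcodes and 0 of the 93 members. Leaving out the 51 members with 3 UMIs of any of the sets of 4 genes kept 64 control and 58 MYC members and a log2 ratio of the shares of 0.19, against 0.11 with all of them.

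Among 7403 genes with at least 50 UMIs over all members, 1152 (15.6%) differed by at least 1.5-fold with a counting interval that excluded equality. Of these, 474 (6.4%) were higher and 678 (9.16%) lower in the MYC library, and a gene is said below to have risen or fallen only if it was among them. At 2-fold, 3.47% of genes differed, 1.28% higher and 2.19% lower. The median log2 ratio of all 7403 genes was -0.08. In the progenitors without Hlf and Mecom, 28.4% of 10562 genes differed by the same rule, 10.5% higher and 18.0% lower. A single transcript, Gm42418, made up 17.3% of control and 10.0% of MYC member UMIs. Computed without it, the median of all genes was -0.20 and the split was 290 higher and 1135 lower, so ratios near 0 depend on this choice. Without the 20 most abundant genes the median was -0.19 and the split 306 and 1073. Median-of-ratios scaling moved every ratio the other way, for example from 0.70 to 0.78 for Gapdh, and so the split toward higher genes. The excess of lower over higher genes therefore depends on the scaling. Of the genes named here, 56 were higher and 44 lower by the rule, and 22 and 13 of them stayed past 1.5-fold in every alternative tried. These counts include genes that chose the members, Ctsg, Prtn3 and S100a9 higher and Meis1, Angpt1 and Adgrg1 lower. Their calls are a description only, and of them Ctsg alone stayed past 1.5-fold throughout.

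The direction of a gene moved with the length of its transcript, taken as its longest in the GENCODE annotation. With genes in 4 classes of equal size by length, in the shortest class 16.3% were higher and 2.70% lower in the MYC library, and in the longest class 1.19% were higher and 17% lower. The median log2 ratio went from 0.21 through -0.05 and -0.17 to -0.28 over the classes. Genes that rose had a median length of 1675 bases and genes that fell 4736, against 3450 over all. The part of this trend in the results below was not tested, and the median length is given for several of the lists.

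**Figure D2:**
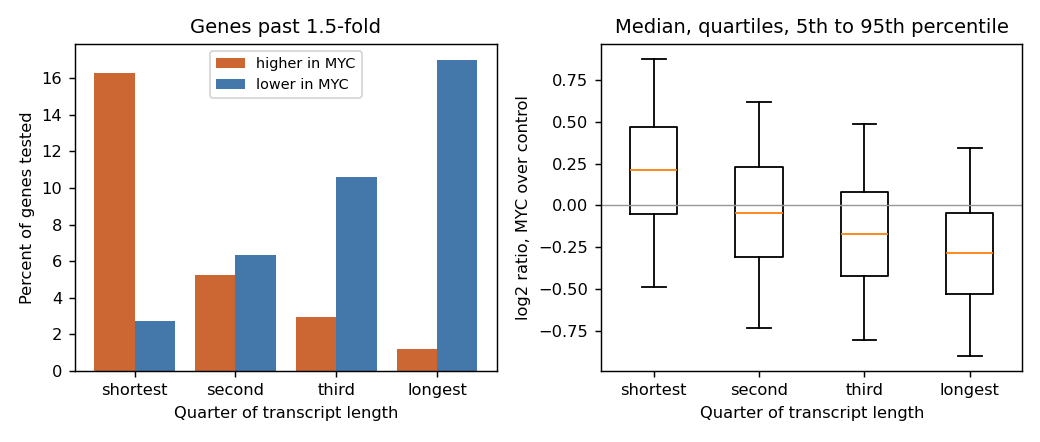
Percent of tested genes at least 1.5-fold higher or lower in the MYC library (left) and log2 ratio of MYC over control (right; line, median; box, quartiles; whiskers, 5th and 95th percentile) for 4 classes of genes of equal size by transcript length. The share of higher genes falls from 16.3% to 1.19% and the share of lower genes rises from 2.70% to 17% from the shortest to the longest class.

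Of the 7 stem genes that chose the members, 5 stood lower in the MYC library, 1 stood higher, and the interval of Mecom included equality. Hlf, a leucine zipper factor, stood at 218 CPM (467 UMIs) in control members against 155 CPM (233 UMIs) in MYC members, with a log2 ratio of -0.49. Mecom, a zinc finger factor that maintains stem cells, was at 117 and 109 CPM (log2 ratio -0.09, interval -0.39 to 0.20). The homeobox factor Meis1 was at 218 and 125 CPM, the niche ligand Angpt1 at 288 and 182 CPM, the adhesion receptor Adgrg1 at 465 and 287 CPM, and the stem cell factor receptor Kit at 212 and 149 CPM. Adgrl4, an adhesion receptor of stem and endothelial cells, was the one with the opposite sign, at 183 against 247 CPM. In progenitors without Hlf and Mecom the log2 ratios of Meis1, Angpt1 and Kit were 0.34, 0.32 and 0.16, of the opposite sign, and those of Adgrg1 and Adgrl4 were -0.36 and 0.53, of the same sign as in members. The difference between the populations was not tested.

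Stem cell transcription factors that the rule did not use were lower in the MYC members. Of 17 tested, 6 fell and none rose, beside 9.16% and 6.4% of all genes, and the median log2 ratio was -0.52 with an interval across genes of -0.62 to -0.19. Genes between the length quartiles of these factors had a median of -0.11, and 8.78% of them were lower. Gfi1b, a repressor of stem and megakaryocyte-erythroid cells, fell from 36.4 to 16 CPM (log2 ratio -1.19, interval -1.91 to -0.51). Gata2, which sustains stem cell numbers, fell from 180 CPM in 385 UMIs to 107 CPM in 161 UMIs (log2 ratio -0.74). Neither pair of counting intervals overlapped. With members thinned to 5000 UMIs the log2 ratio of Gfi1b was -0.52, and without members rich in other lineages' genes that of Gata2 was -0.54, both under 1.5-fold.

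Among the others that fell are core factors of the stem cell program. Tal1 fell from 105 to 65.3 CPM, Fli1 from 170 to 107 CPM and Runx1 from 201 to 131 CPM. Each of these 3 was under 1.5-fold in some alternative, Tal1 down to -0.45, Fli1 to -0.50 and Runx1 to -0.49. Msi2 (292 and 201 CPM), Nfe2 (141 and 98.0 CPM) and Etv6 (193 and 145 CPM) were lower without reaching 1.5-fold. Hoxa9 (46.7 and 38.7 CPM), Mllt3 (47.6 and 42.7 CPM) and the bridging factor Lmo2 (444 and 453 CPM) had intervals that included equality. Hoxa7 was at 33.1 and 48.0 CPM, the only tested member of the list with a log2 ratio above 0.5. All 20 tested factors, the rule's genes included, had a median log2 ratio of -0.50 in members, and the 17 tested in progenitors without Hlf and Mecom one of -0.12. Some of these factors moved little there (Gata2 -0.12), while others differed nearly as much or more (Tal1 -1.16, Fli1 -0.62). In bulk sums over members, fewer cells with a transcript and less of it per cell cannot be told apart.

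**Figure D3:**
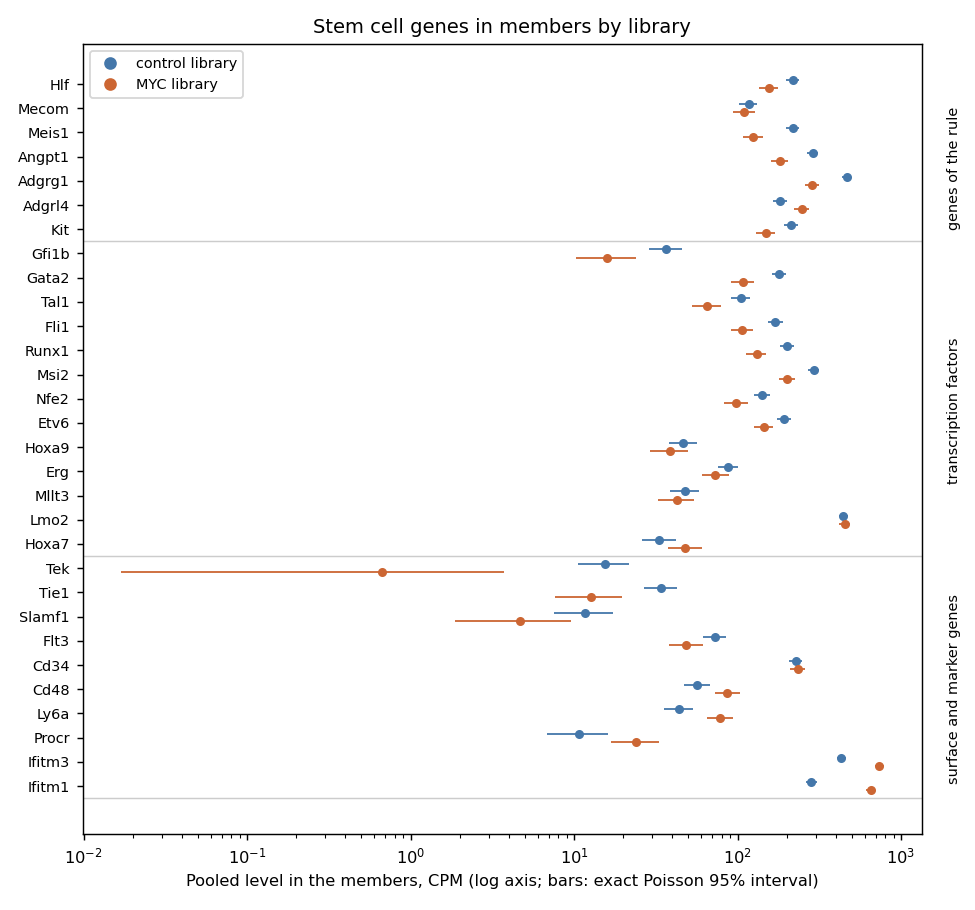
Summed level of stem cell genes in the 93 control (blue) and 80 MYC (orange) members, in CPM on a log axis, with exact Poisson 95% intervals of the counts. Most transcription factors sit lower in the MYC library, Tek and Tie1 are the farthest apart of the genes shown, and Ly6a, Ifitm3 and Ifitm1 sit higher in the MYC library.

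Surface and marker genes of stem cells moved in both directions. Of 17 tested outside the rule, 5 rose and 1 fell, beside 6.4% and 9.16% of all genes, with a median log2 ratio of 0.00. Ly6a, which encodes the stem cell antigen Sca-1, rose from 43.9 to 78.6 CPM, with 94 UMIs in 36 control members and 118 UMIs in 44 MYC members (log2 ratio 0.84, interval 0.44 to 1.25). The interferon-inducible membrane protein genes Ifitm1 and Ifitm3 rose from 283 to 650 CPM and from 430 to 738 CPM. In progenitors these 2 genes also had positive log2 ratios, of 1.91 and 1.11, while Ly6a was at -0.24 there. Cd48, a surface protein that progenitors carry and the most primitive stem cells lack, rose from 56.5 to 86.6 CPM, but its log2 ratio under the alternatives ran from 0.06 to 0.95. Procr rose from 23 to 36 UMIs, which are few, and with members thinned to 5000 UMIs its log2 ratio was -0.036.

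Tie receptors stood at the other end. Tek, which encodes TIE2, the receptor of angiopoietins on quiescent stem cells, had 33 UMIs in 25 of 93 control members and 1 UMI in 1 of 80 MYC members. As shares of members these are 26.9% (18.2 to 37.1) and 1.25% (0.0316 to 6.77), and the share in neutrophil-rich barcodes was 0.0949% and 0.0630%. After thinning to 5000 UMIs, 12 of 93 control and 1 of 78 MYC members held a Tek UMI. The log2 ratio was -4.53 with a counting interval of -9.88 to -1.95, below the 50 UMIs that the call rule asks for. Tek was singled out after its values were seen. Its partner Tie1, from the same receptor family, fell from 73 UMIs in 42 control members to 19 UMIs in 13 MYC members (log2 ratio -1.43, interval -2.24 to -0.68). Endothelial cells carry both receptors too. The 14 endothelial genes, which include Tie1 and the rule's Adgrl4, summed to 339 CPM in control and 388 CPM in MYC members, and among them Egfl7 rose from 103 to 123 UMIs. The defining genes Cdh5 and Kdr had 19 and 23 UMIs in control members against 2 and 10 in MYC members, and the part of endothelial transcripts in these results was not tested. Without the members rich in other lineages' genes the log2 ratio of Tie1 was -1.51, and over all alternatives it ran from -1.95 to -1.19.

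Other receptors differed less. None of 13 tested receptor and ligand genes outside the rule met the call rule, beside 6.4% higher and 9.16% lower of all genes, and their median log2 ratio was 0.00. The whole list, rule genes included, had lower medians in some alternatives, given below. Flt3, the cytokine receptor of multipotent progenitors, was at 72.8 and 48.7 CPM and Igf1r at 169 and 126 CPM. Slamf1, which encodes the stem cell marker CD150, had 25 UMIs in 17 control members and 7 UMIs in 5 MYC members, too few for the call rule. Of 15 niche adhesion and homing genes none met it, beside 6.4% higher and 9.16% lower of all genes, and the homing receptor Cxcr4 was at 34.1 and 38.0 CPM.

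Genes of mitosis were lower in the MYC members. Of 26 tested G2 and mitosis genes, 10 fell and none rose, beside 9.16% and 6.4% of all genes and 8.26% lower among genes between their length quartiles, and the median log2 ratio was -0.51 (-0.65 to -0.41) in members and -0.49 in progenitors. Mki67, the proliferation antigen, fell from 721 to 389 CPM (1545 and 583 UMIs). A Mki67 UMI was found in 72 of 93 control and 46 of 80 MYC members, and after thinning in 61.3% (50.6 to 71.2) and 47.4% (36.0 to 59.1), whose intervals overlap. Unthinned, 54.8% and 49.8% of neutrophil-rich barcodes held one. The cyclin gene Ccna2 fell from 72.4 to 38.7 CPM, and the kinetochore genes Cenpe and Cenpf from 164 to 76.6 CPM and from 242 to 128 CPM. Aurkb, a mitotic kinase, was the exception in sign, at 51.8 and 67.3 CPM. With the ceilings on granulocyte genes lowered 10-fold, the median of the list was -0.19, and without members rich in other lineages' genes it was -0.89. With lowered ceilings Cenpe was at -0.33 and Cenpf at -0.38.

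Genes of DNA replication differed less. Of 28 S phase genes 2 rose and none fell, a share of risen genes near the 6.4% of all genes, with a median log2 ratio of 0.11 in members against -0.63 in progenitors without Hlf and Mecom, a difference that was not tested. Ung, which removes uracil from DNA, rose from 21.0 to 44.7 CPM, and the replication complex gene Gins2 from 23.3 to 45.3 CPM. With ceilings lowered 10-fold Gins2 was at 0.49, under 1.5-fold. The replication clamp gene Pcna was at 316 and 247 CPM. The median control member held 0.207% of its UMIs in S phase genes and the median MYC member 0.228%, and for G2 and mitosis genes these shares were 0.212% and 0.132%. Over 0.5% of UMIs in G2 and mitosis genes was reached by 29 control and 19 MYC members.

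**Figure D4:**
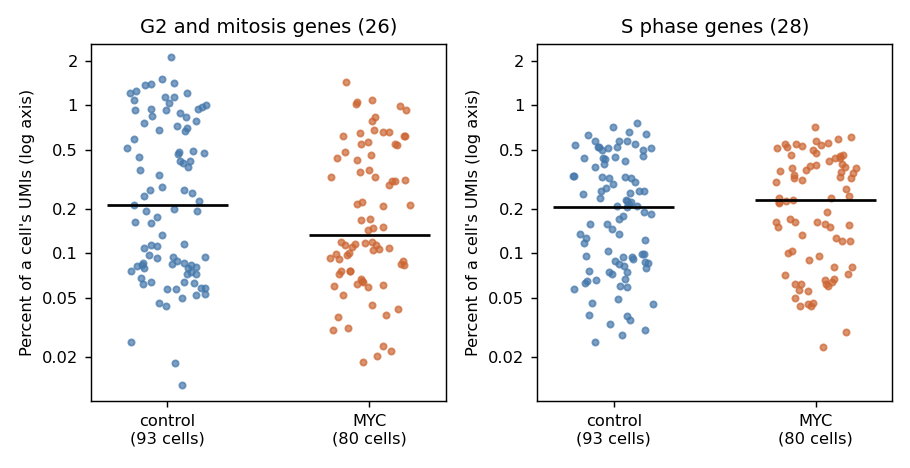
Percent of each member's UMIs in 26 G2 and mitosis genes (left) and 28 S phase genes (right), on log axes, 1 point per cell, with the median as a line. The medians are 0.212% and 0.132% for G2 and mitosis genes and 0.207% and 0.228% for S phase genes, and the points of the libraries overlap over nearly their whole range.

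Brakes on division did not rise as a group. Of 14 tested dormancy and cell cycle brake genes 1 rose and 5 fell, beside 6.4% and 9.16% of all genes. The median log2 ratio was -0.29 with an interval of -0.69 to 0.14 that included 0, and the median length was 4354.5 bases. Foxo3, a factor that keeps stem cells quiescent, fell from 51.8 to 28 CPM (log2 ratio -0.89). The cell cycle regulator Ccng2 fell from 28.9 to 14.7 CPM, the retinoblastoma relative Rbl2 from 40.6 to 26 CPM, the kinase inhibitor Cdkn2c from 28.5 to 17.3 CPM and the antiproliferative gene Btg1 from 83.1 to 54.7 CPM. Of these 5, Foxo3 alone stayed past 1.5-fold in every alternative, and Btg1 was at -0.09 with members thinned. Klf2, a quiescence factor of lymphocytes, rose from 18.2 to 52.7 CPM, but 30 of its 79 MYC UMIs came from 1 cell and 84.0% of neutrophil-rich MYC barcodes held it. With the barcodes of highest doublet score left out its log2 ratio was 0.57. Of 9 G1 cyclins and kinases only Cdk6 met the call rule, as lower, beside 9.16% of all genes. It is the kinase that sets how fast stem cells leave quiescence. Cdk6 fell from 562 to 359 CPM (1205 and 538 UMIs), while Ccnd2 was at 278 and 297 CPM and Cdk4 at 184 and 212 CPM. With members thinned, Cdk6 was at -0.31.

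Myeloid genes were higher in the MYC members. Of 11 granulocyte and monocyte priming genes 6 rose and none fell, beside 6.4% and 9.16% of all genes, with a median log2 ratio of 0.76 in members and 0.78 in progenitors. The median length of the list was 2626 bases. Spi1, the myeloid master factor PU.1, rose from 70.5 to 120 CPM, and Cebpb, a factor of emergency granulopoiesis, from 56 to 90 UMIs. Neutrophil-rich barcodes also held these, Spi1 in 84.9% and 87.1% of them and Cebpb in 62.7% and 76.6%. Ms4a3, a marker of committed granulocyte-monocyte progenitors, rose from 30.8 to 84.6 CPM, found in 26 members of each library. The monocyte genes Ly6c2, Ccr2 and F13a1 rose from 36.4 to 78.0 CPM, from 36.4 to 66.0 CPM and from 21.0 to 40.7 CPM.

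These myeloid differences moved with the limits that define the members. With no ceilings the list median was -0.021, Spi1 was at 0.12 and Cebpb at 0.25. With ceilings lowered 10-fold, Ms4a3 was at -0.21. With under 5% mitochondrial UMIs, Ccr2 was at -0.0705, Ly6c2 at 0.09 and F13a1 at 0.19, and the list median was 0.18. Of the granule genes held down by the rule, Ctsg was at 169 and 628 CPM, Prtn3 at 368 and 756 CPM, Elane at 78.0 and 109 CPM and Mpo at 721 and 680 CPM.

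Of 13 tested lymphoid priming genes 2 rose and 2 fell, beside 6.4% and 9.16% of all genes, with a median of -0.29 (-0.57 to 0.06). Dntt, the terminal transferase of lymphoid-primed progenitors, fell from 107 UMIs in 13 control members, 38 of them in 1 cell, to 17 UMIs in 9 MYC members. The log2 ratio of Dntt was -2.14 with all members and -0.58 in those with 3 or more UMIs of Hlf and Mecom. Notch1, the receptor that opens the T cell path, fell from 27.1 to 14.0 CPM, and with a UMI of each of Hlf and Mecom required it was at -0.18. The leukocyte surface antigen Cd52 rose from 142 to 234 CPM, and with no ceilings it was at 0.10. The B cell factor Ebf1 had 36 UMIs in 8 control members and 1 UMI in the MYC members, and the log2 ratio of -4.66 has a counting interval of -10.00 to -2.09.

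Genes of MHC class II, which present antigen to helper T cells and which stem cells are known to carry at low level, rose together. All 6 tested of 7 rose, beside 6.4% of all genes, and the median log2 ratio was 0.86 (0.66 to 1.64) in members and 0.26 in progenitors. H2-Ab1 rose from 39.2 to 125 CPM (84 and 187 UMIs), with a log2 ratio of 1.67 (1.29 to 2.06). It was found in 42 of 93 control and 62 of 80 MYC members, and after thinning in 17.2% (10.2 to 26.4) and 44.9% (33.6 to 56.6), whose intervals do not overlap. Unthinned, 9.88% and 5.53% of neutrophil-rich barcodes held it. H2-Aa rose from 86 to 150 UMIs, the invariant chain Cd74 from 119 to 201 CPM and H2-Eb1 from 30.3 to 48.7 CPM. In the control, 33 of the H2-Aa UMIs, 33 of 65 H2-Eb1 UMIs and 81 of 255 Cd74 UMIs came from 1 cell, so the ratios were larger without it: leaving out the richest cell of the gene gave 1.60 for H2-Eb1 in place of 0.68. The peptide exchange factors H2-DMa and H2-DMb1 rose from 82.2 to 133 CPM and from 20.5 to 41.3 CPM. Without members rich in other lineages' genes the median was 2.03. With a UMI of each of Hlf and Mecom required, H2-Eb1 was at 0.43 and Cd74 at 0.56, and without Gm42418 H2-Eb1 was at 0.56 and H2-DMa at 0.58, all under 1.5-fold. H2-Ab1, H2-Aa and H2-DMb1 stayed past 1.5-fold in every alternative. Dendritic cells carry these genes at high level, and 10 dendritic cell genes, which include H2-Ab1 and Bst2, summed to 473 CPM in control and 630 CPM in MYC members. Of the others, Cst3 was at 552 and 440 UMIs (log2 ratio 0.19) and Siglech at 23 and 4 (log2 ratio -2.01). Itgax was at 3 and 1 UMIs, and Xcr1 and Cd209a were at 0 in the members of both libraries. These transcripts are short, with a median of 1539.5 bases, and the part of length was not tested.

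The promoters of these genes are known to share a Y box that binds the factor NF-Y, and 2 of them are shown because the genes moved together. The letters CTGATTGG, searched on both strands, occur in the promoters of 2 of the 4 tested class II genes matched in the RefSeq table (GRCm38.p6), against 4.70% of 27025 genes, with windows of 300 bases. They are not particular to class II genes, occurring also in 6 of 25 matched nucleotide and polyamine synthesis genes (24%). In ribosomal protein and ribosome biogenesis genes the shares were 4.84% and 2.08%. H2-Ab1 and Cd74 were not matched, and H2-DMa and H2-DMb1 held no match. The 150 bases before the start are printed 5′ to 3′ with the match in capitals, which begins 51 bases before the start in H2-Aa (chr17:34287824-34287973, minus strand) and 62 bases before it in H2-Eb1 (chr17:34305717-34305866, plus strand).
H2-Aa: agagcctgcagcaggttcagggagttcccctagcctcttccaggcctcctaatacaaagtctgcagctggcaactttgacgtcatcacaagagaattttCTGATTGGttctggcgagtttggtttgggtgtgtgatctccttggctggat
H2-Eb1: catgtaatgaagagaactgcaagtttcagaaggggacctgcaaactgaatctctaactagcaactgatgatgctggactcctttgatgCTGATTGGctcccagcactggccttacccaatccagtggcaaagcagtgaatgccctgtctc
A match of letters is a description and does not show binding in these cells.

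Other immune genes were mixed. Of 15 MHC class I and processing genes 2 rose, beside 6.4% of all genes, the immunoproteasome subunits Psmb8 (234 to 435 CPM) and Psmb9 (137 to 209 CPM), and the heavy chain H2-K1 was at 868 and 956 CPM. Psmb9 was under 1.5-fold in 4 alternatives, down to 0.49 without Gm42418. Of 32 tested interferon response genes 2 rose and 4 fell, shares near the 6.4% and 9.16% of all genes, with a median log2 ratio of 0.00 in members and -0.60 in progenitors, a difference that was not tested. Bst2, the virus tether tetherin, rose from 85.0 to 159 CPM. The antiviral genes Rsad2 and Ifi44 fell from 23.8 to 10.7 CPM and from 28.5 to 11.3 CPM. Under 5% mitochondrial UMIs, Ifi44 was at -0.42.

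Alarmin genes of the S100 family outside the rule were higher in the MYC library. Of 6 tested alarmins that the rule did not use 4 rose and none fell, beside 6.4% and 9.16% of all genes, with a median of 0.65 (0.05 to 1.90). S100a4, a calcium-binding protein of motile myeloid cells, rose from 56 UMIs in 19 cells to 150 UMIs in 41 cells, with neutrophil-rich shares of 9.95% and 25.6%. S100a6, S100a10 and S100a11 rose from 111 to 209 CPM, from 137 to 221 CPM and from 166 to 253 CPM, and the chromatin protein and alarmin Hmgb1 was at 1157 and 1198 CPM. All 4 tested genes among 11 of alarmin sensing rose, beside the same 6.4% of all genes: the inflammasome adaptor Pycard (81.7 to 157 CPM), Casp1 (27.1 to 42.7 CPM), the pore-forming Gsdmd (15.9 to 28 CPM) and the Toll-like receptor adaptor Myd88 (14.9 to 24.7 CPM). These differences also moved with the limits that define the members: with no ceilings S100a11 was at 0.07, S100a6 at 0.54, Gsdmd at 0.49 and Myd88 at 0.41. Casp1 was at 0.33 and Myd88 at 0.25 with members thinned. S100a4 and Pycard stayed past 1.5-fold in every alternative. The receptors Tlr4 and Tlr2 had 10 and 18 UMIs in control members against 5 and 12 in MYC members. These S100 transcripts are short, with a median length of 602 bases for the list, and neutrophil transcripts moved with them: the median share of S100a8 and S100a9 was 0.147% in control and 0.269% in MYC members. The part of either was not tested.

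Among the lists, ribosomal proteins had the largest number of risen genes. Of 82 tested, 35 rose and none fell, beside 6.4% and 9.16% of all genes and 16.3% and 2.70% of the shortest class, with a median log2 ratio of 0.53 (0.39 to 0.62) in members and 0.57 in progenitors. Rps18 rose from 2221 to 4817 CPM and Rpl13 from 4053 to 6958 CPM. Together the ribosomal protein genes gave 19.9% of control and 27.5% of MYC member UMIs, with cell medians of 18.6% and 28.5%. They are among the shortest transcripts, with a median of 1076.5 bases. Computed without Gm42418, the median was 0.41.

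Other genes of growth moved less. Of 56 ribosome biogenesis genes 4 rose (Rrp1b, Nhp2, Nip7 and Mrto4) and none fell, a share of risen genes near the 6.4% of all genes, and 3 of the 4, all but Nhp2, were under 1.5-fold in some alternative. The list had a median log2 ratio of 0.21 (0.10 to 0.27) and of 0.0894 without Gm42418. The nucleolar proteins Ncl and Npm1 were at 1554 and 1791 CPM and at 1927 and 2299 CPM. The letters CACGTG, the E-box that MYC and MAX are known to bind and a palindrome, occur in the promoters of 11 of 48 matched ribosome biogenesis genes (22.9%) against 8.09% of all genes, and in none of the 4 that rose. Of 25 translation factors 3 rose, beside 6.4% of all genes, among them the elongation factor Eef1b2 (1144 to 1922 CPM). Of 28 nucleotide and polyamine synthesis genes 2 rose and 3 fell, shares near the 6.4% and 9.16% of all genes. Gapdh, a glycolytic enzyme, rose from 596 to 968 CPM as the only one of 16 glycolysis genes, a share near the 6.4% of all genes. Without Gm42418 it was at 0.58, just under 1.5-fold.

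The feature named MYC gave few UMIs. Its sequence is not stated in the sources used here, and it had 0 UMIs in control members and 4 UMIs in 4 of 80 MYC members. The latter share of 5% compares with 3.26% of neutrophil-rich barcodes in that library, which were shallower, and after thinning 1 of 78 MYC members (1.28%) held a UMI. In the control, 0 of 93 allows a share of members with a UMI of up to 3.23%, taken as 3 of the total. Mouse Myc was at 121 and 136 CPM, with a log2 ratio of 0.16 (-0.11 to 0.43). Its sign was not stable, at -0.60 with members thinned and -0.31 with ceilings lowered 10-fold, and after thinning 49.5% of control and 33.3% of MYC members held a UMI. Of 10 tested genes of the MYC, MAX and MXD network only Mlxip fell, a share near the 9.16% of all genes. Mlxip went from 29.9 to 16 CPM, and without members rich in other lineages' genes it was at -0.55, under 1.5-fold. Mycn was at 32.7 and 23.3 CPM and Max at 53.2 and 44.7 CPM.

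**Figure D5:**
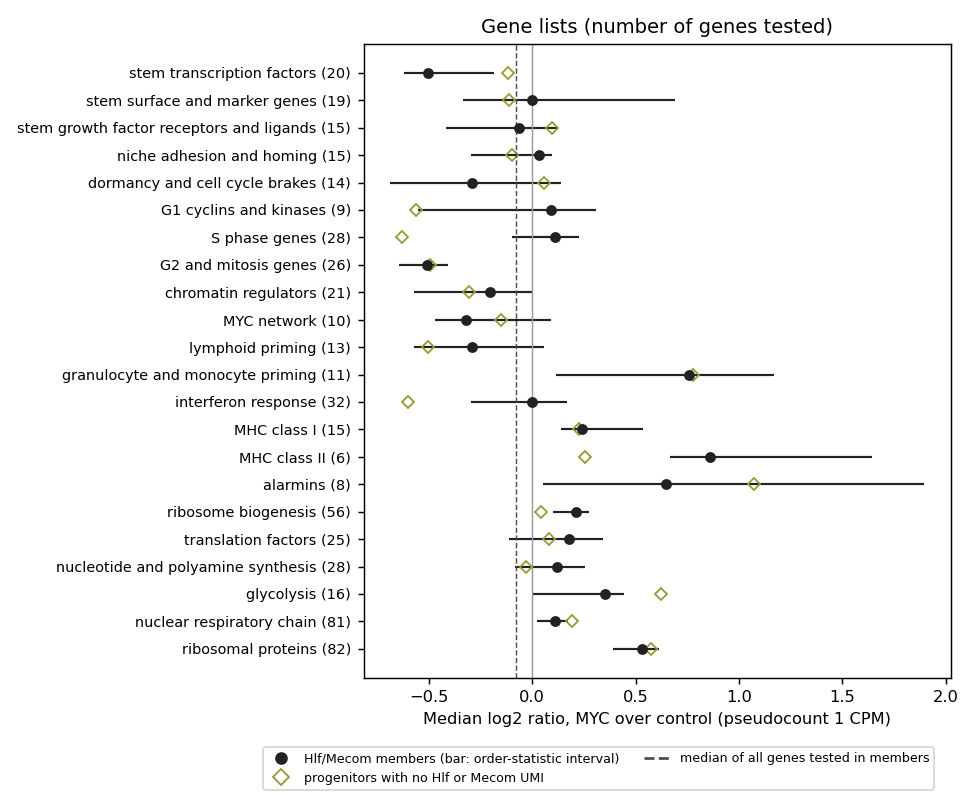
Median log2 ratio of MYC over control for each gene list in the members (filled circles, bars from order statistics across genes) and in progenitors without Hlf and Mecom (open diamonds), with the number of tested genes in brackets. Among the lists shown, the lowest medians in members are the G2 and mitosis genes at -0.51 and the stem transcription factors at -0.50, and the highest is MHC class II at 0.86, while the dashed line marks all genes at -0.08.

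Survival and chromatin genes completed the lists. Of 8 Bcl2 family genes 1 rose and 2 fell, beside 6.4% and 9.16% of all genes. The survival gene Bcl2 fell from 115 to 70.0 CPM, the death effector Bax rose from 53.2 to 86.0 CPM, and Mcl1 was at 112 and 116 CPM. Bcl2 was at -0.49 with members thinned, and Bax was under 1.5-fold in 4 alternatives, down to 0.50. Bcl2l1 fell from 58 to 23 UMIs but was at 0.62 with members thinned. Of 21 chromatin regulators 5 fell and none rose, beside 9.16% and 6.4% of all genes and 17% lower in the longest class: Hdac1 (99.4 to 55.3 CPM), Kmt2a (215 to 140 CPM), Smarca2 (112 to 68.6 CPM), Sirt1 (26.1 to 14.0 CPM) and the DNA methyltransferase Dnmt3b (51.8 to 34.0 CPM). Sirt1 alone of these stayed past 1.5-fold in every alternative, and Dnmt3b was at -0.24 with no ceilings. This list has long transcripts, with a median of 5870 bases. Ccng1, a p53 target, fell from 37.8 to 16.7 CPM, while Cdkn1a was at 13.1 and 15.3 CPM.

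The genes farthest apart among those with a mean of at least 50 CPM ran in both directions. Tfrc, the transferrin receptor that brings iron into dividing cells, rose from 42.5 to 167 CPM (91 and 250 UMIs), with a log2 ratio of 1.97 (1.62 to 2.33), and in progenitors it was at -0.45. A UMI of Tfrc was found after thinning in 9 of 93 control and 27 of 78 MYC members, and unthinned in 23.6% and 29.2% of neutrophil-rich barcodes. The cold-inducible RNA-binding protein Rbm3 rose from 395 to 996 CPM, Lgals1 from 83.6 to 201 CPM and the fatty acid carrier Fabp5 from 87.3 to 198 CPM. Lgals3 rose from 26.1 to 98.0 CPM but was held by 76.1% and 90.5% of neutrophil-rich barcodes.

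At the other end, Gm15564 fell from 353 UMIs in 82 control members to 33 UMIs in 27 MYC members (log2 ratio -2.91) and moved likewise in progenitors, from 133 to 22.6 CPM. Among neutrophil-rich barcodes 43.8% and 20.2% held it, so the difference was not particular to members. Gm15564 is annotated as antisense on chromosome 16, and whether reads of its partner strand add to its count was not tested. Slc22a3, an organic cation transporter, fell from 87.8 CPM in 64 members to 30.7 CPM in 31. The linker histone gene H1f0 fell from 97.1 to 39.3 CPM, the Lmo2-complex factor Ssbp3 from 80.3 to 32.0 CPM, the deadenylase Cnot6 from 130 to 54.7 CPM and the deacetylase Hdac7 from 68.2 to 32.0 CPM. With members thinned, Slc22a3 was at -0.75, Ssbp3 at -0.65, Cnot6 at -0.65 and Hdac7 at -0.38. The erythroid gene Car1 fell from 189 to 19 UMIs, 154 of them in 1 control cell, and was at -1.03 without the richest cell of each library, -0.55 with 3 UMIs of Hlf and Mecom and 0.0186 with a UMI of each. In progenitors the log2 ratio of Car1 was 0.69.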

How the data were processed

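For each library, the deposited files give UMI counts by gene and barcode, whose software is named in the file headers as Cell Ranger 6.0.0. GRCm38 (mm10), Cell Ranger 6.0 and Seurat are named in the submitters' processing notes, and a v2 3′ kit in the labels' protocols. How barcodes were called as cells is not given in the sources used here. Counts of the same symbol were added, and UMIs were summed over members per library, as CPM. At 95%, Poisson intervals (exact) go with levels, conditional binomial ones with ratios and Clopper-Pearson ones with shares. Lists used genes with at least 50 UMIs and a pseudocount of 1 CPM. Members, lists and comparisons were chosen with earlier results of these data known. Named genes were those of the rule, the 12 highest and 12 lowest log2 ratios at a mean of at least 50 CPM (not all are reported here), and the most abundant and extreme of each list. The script that makes the calls was first run on simulated counts with known changes. Scrublet in scanpy 1.11.5 called 671 control barcodes and 0 MYC barcodes, which was taken as a failure, so doublets were not removed, and free RNA was not corrected. Lengths came from GENCODE and promoters from RefSeq. Python 3.11.15, numpy 2.4.6 and scipy 1.17.1 were used.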

Additional observations from a re-analysis of the deposited data

How the results depend on the processing

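No paired analysis was possible because each group has 1 library, and for the same reason no replicate could be left out. Leaving out called doublets was not run, since the caller marked no MYC barcode. Leaving out the 10% of barcodes with the highest doublet scores, computing without Gm42418 and thinning members to 5000 UMIs were chosen after seeing the data. Under the 10 alternatives for it, the log2 ratio of the shares of members ran from -0.24 to 0.50, and every interval included 0. The number of genes higher and lower was 290 and 1135 without Gm42418, 306 and 1073 without the 20 most abundant genes, 188 and 170 at 200 UMIs per gene, and 95 and 162 at 2-fold. Median-of-ratios scaling moved every ratio upward, as given above for Gapdh, and so this split toward higher genes. Leaving aside lists of other cell types unless they changed sign, the list medians that left their interval across genes were as follows. With 3 UMIs of Hlf and Mecom they were 0.64 for aged stem cell genes, -0.52 for the MYC network, 0.25 for the nuclear respiratory chain and 0.61 for megakaryocyte genes. With ceilings lowered 10-fold they were -0.19 for G2 and mitosis genes, 0.0054 for ribosome biogenesis and 0.20 for megakaryocyte genes, and with no ceilings -0.021 for granulocyte and monocyte priming. With the highest doublet scores left out they were 2.02 for MHC class II and 0.18 for the respiratory chain, and with other lineages' cells left out -0.89 for G2 and mitosis genes, 2.03 for MHC class II and 0.26 for the respiratory chain. Median-of-ratios scaling gave 0.11 for niche genes, 0.29 for ribosome biogenesis and 0.19 for the respiratory chain, and the mean of cells 0.18 for the last. Without the 20 most abundant genes MHC class I was at 0.13 and the respiratory chain at 0.000799, and without Gm42418 these were 0.12 and -0.0122, with stem transcription factors at -0.63 and ribosome biogenesis at 0.0894. At 200 UMIs receptors were at -0.46 and interferon genes at 0.17. Thinned members gave -0.49 for receptors, 0.32 for nucleotide synthesis, 0.50 for glycolysis, -0.53 for the MYC network, 1.85 for MHC class II and 0.26 for the respiratory chain. Single genes whose interval excluded equality changed sign: Ccr2 (-0.0705) under 5% mitochondrial UMIs, Pf4 (1.08), S100a8 (-1.05), S100a9 (-0.70), Vwf (0.0895) and Fcer1a (-2.25) with 3 UMIs, Car1 (0.0186), Cxcl12 (0.43) and Ms4a2 (1.02) with a UMI of each gene, Ms4a3 (-0.21) and Pf4 (0.12) with ceilings lowered 10-fold, Ly6c2 (-0.15), Elane (-0.59), Prtn3 (-0.12), S100a8 (-1.25), S100a9 (-0.78) and Prdx5 (-0.019) with none, Pf4 (0.10) without the highest doublet scores, Pf4 (0.81) and Siglech (2.45) without other lineages' cells, and Procr (-0.036), Bcl2l1 (0.62), Elane (-0.0175) and Vwf (0.18) when thinned. Some genes whose interval included equality changed sign too, such as Cebpa (0.25, and -0.81 when thinned), Hoxa9 (-0.27 and 0.17 when thinned), Mllt3 (-0.16, and 0.17 under 5% mitochondrial UMIs) and Mecom (-0.09, and 0.16 likewise). The wide intervals of short lists held larger moves, such as 0.18 for granulocyte and monocyte priming under 5% mitochondrial UMIs and 0.15 for alarmins with no ceilings. The causes were not tested, beyond the fewer cells, genes or UMIs that an alternative keeps by its construction.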

Other observations

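Genes known to rise in stem cells of aged mice, read from a list of 20, showed no common direction. Of 11 tested 1 rose and 2 fell, beside 6.4% and 9.16% of all genes. Nupr1, a stress-induced chromatin regulator, rose from 15 UMIs in 7 control members to 38 UMIs in 18 MYC members. Aldh1a1, a retinaldehyde dehydrogenase, fell from 38.7 to 22 CPM but was at -0.49 under 5% mitochondrial UMIs, and Dnmt3b fell as given above. The platelet factor gene Vwf was at 80.8 and 54.0 CPM, with 49 of 173 and 32 of 81 UMIs in 1 cell. The adhesion receptor Selp had 86 and 90 UMIs, a log2 ratio of 0.58 that was just under 1.5-fold. The list median was 0.15, with an interval across genes of -0.59 to 0.57.

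Of 16 tested iron and redox genes, 5 rose and 1 fell, beside 6.4% and 9.16% of all genes, with a median log2 ratio of 0.34 whose interval across genes, -0.13 to 0.66, included 0. Besides Tfrc, the ferritin light chain Ftl1 rose from 510 to 778 CPM, the mitochondrial superoxide dismutase Sod2 from 64.9 to 115 CPM, and the peroxiredoxins Prdx4 and Prdx5 from 37.8 to 62.6 CPM and from 116 to 184 CPM, though Prdx5 was at -0.019 with no ceilings and Ftl1 at 0.41. The cytosolic dismutase Sod1 fell from 301 to 196 CPM. In progenitors the log2 ratios of Ftl1 and Tfrc were 0.14 and -0.45, and whether the populations differ was not tested. Of 18 immediate early and stress genes 3 rose and 1 fell, beside 6.4% and 9.16% of all genes, and the median log2 ratio was -0.07, with Zfp36l1, an RNA decay factor, falling from 53.2 to 25.3 CPM.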
